A study of Mus musculus with 12 samples.

Results

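Surf1, Surf2, Surf4, Surf6 and Med22 make up most of the mouse surfeit cluster, a tight group of unrelated genes on chromosome 2, and Rexo4 and Adamts13 lie next to it. Every probe set whose annotated symbol was exactly 1 of these 7 genes was taken, which gave 13 of the 45037 probe sets tested and 6 of the 18193 genes measured by a probe set of their own. Surf4 had 5 probe sets, Rexo4, Surf6 and Surf2 had 2 each, and Surf1 and Med22 had 1 each. Adamts13 was not analysed here. Surf4 and Rexo4 were picked out by the study from the same 12 arrays by a 4-group analysis of variance. Their values are therefore given as a description without a test, and the other 4 genes, which came in by their position, were tested.

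Surfeit genes are expressed in most cell types and share no sequence similarity, and the neighbours Surf1 and Surf2 are transcribed in opposite directions from a common promoter region. Surf4 encodes a membrane protein that cycles between the endoplasmic reticulum and the Golgi and carries soluble cargo proteins out of the endoplasmic reticulum, and Rexo4 encodes a putative exonuclease whose yeast counterpart acts in ribosomal RNA processing. Surf6 is a nucleolar protein of ribosome biogenesis, Surf1 an assembly factor of cytochrome c oxidase, Med22 a subunit of the Mediator complex that links transcription factors to RNA polymerase II, and Adamts13 the protease that cleaves von Willebrand factor.

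Expression was profiled in the spleens of 12 female mice on 12 whole-genome arrays, 1 mouse per array. The 4 groups of 3 were immunized BALB/cByJ, immunized BALB/cJ, naïve BALB/cByJ and naïve BALB/cJ mice, all of the inbred BALB/c strain and from colonies of 1 vendor, and the question was how the colonies differ before and after immunization. Immunized mice had received a single intraperitoneal injection of human cartilage proteoglycan (PG, 100 μg protein by the labels, 75 μg per injection in the methods of the colony study) in 2 mg of the adjuvant dimethyldioctadecylammonium 12 days earlier, before arthritis develops, and naïve mice were untreated. The mice of the colony study were 24 to 26 weeks old, and the age of the array animals is not stated apart from these. All values are log2 signals from which the median of the 12 arrays had been subtracted for each probe set, so that 0 is the median array, 1 is a 2-fold difference, and neither levels nor the order of levels between probe sets are known. The labels give pieces of spleen as the source of RNA and the methods spleen cells, and in either, fewer cells of a type and less RNA per cell cannot be told apart. The SD over the values of 1 array was between 0.13 and 0.265.

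Some arrays stood apart in the markers of other cells. In naïve BALB/cByJ replicate 1 the median of 15 measured genes of the exocrine pancreas was 2.10, with 12 of the 15 above 1, and in the other 11 arrays it lay between -0.125 and 0.242. Naïve BALB/cByJ replicates 2 and 3, at 0.242 and 0.125, also lay above the naïve BALB/cJ arrays (-0.125 to 0.0125). The immunized colonies overlapped, at -0.0423 to 0.011 in BALB/cByJ and -0.111 to 0.0276 in BALB/cJ. The median of 18 measured genes of red blood cell formation was between -0.118 and 0.507 in immunized BALB/cByJ, -0.998 and 0.206 in immunized BALB/cJ, 0.189 and 0.678 in naïve BALB/cByJ, and -1.53 and -0.255 in naïve BALB/cJ arrays. The median of 10 pigment cell genes reached 0.983 in immunized and 1.09 in naïve BALB/cJ arrays, against at most 0.254 in immunized and 0.0296 in naïve BALB/cByJ arrays. The median of 19 cell division genes was between -0.012 and 0.422 in immunized BALB/cByJ, -0.536 and 0.0352 in immunized BALB/cJ, 0.209 and 0.498 in naïve BALB/cByJ, and -0.977 and -0.394 in naïve BALB/cJ arrays. As levels are unknown, the presence of spleen cell markers could not be checked. The medians of the B cell list (-0.198 to -0.0556 in naïve BALB/cByJ, 0.0488 to 0.15 in naïve BALB/cJ) and of the plasma cell list (-0.268 to -0.187 and -0.0642 to 0.138) also did not overlap between the naïve colonies, and those of the immunized colonies did. Medians of the neutrophil list were higher with immunization, at -0.122 to 1.17 in immunized and -1.0 to -0.705 in naïve BALB/cByJ arrays, and at 0.519 to 0.854 in immunized and -0.84 to 0.152 in naïve BALB/cJ arrays. Over the 12 arrays the medians of the macrophage list lay between -0.419 and 0.273, of the T cell list between -0.354 and 0.172, of the adipose list between -0.166 and 0.491 and of the heat shock list between -0.248 and 0.512.

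On chromosome 2 the genes follow each other as Surf6, Med22, Rpl7a, Surf1, Surf2, Surf4, Stkld1, Rexo4 and Adamts13, so Surf4 and Rexo4 stand side by side except for Stkld1. In RefSeq's annotation of the mouse assembly GRCm38.p6, neighbours overlap: Surf1 and Surf2 share 239 bases, Surf2 and Surf4 share 147, and Surf4 and Stkld1 share 256. Where the probes lie was not analysed here, so signal from an overlapping neighbour cannot be told apart. The 250 bases before the start of Surf4 and of Rexo4, whose values separated the colonies, and of Surf6, whose values did not, are printed below from that assembly, the C57BL/6J reference and not a BALB/c sequence. They run 5′ to 3′ on the minus strand, and capitals mark GGGCGG, the core of an Sp1 site, and CTTCCGG, the reverse complement of the ETS core CCGGAAG.
Surf4, chr2:26933512-26933761: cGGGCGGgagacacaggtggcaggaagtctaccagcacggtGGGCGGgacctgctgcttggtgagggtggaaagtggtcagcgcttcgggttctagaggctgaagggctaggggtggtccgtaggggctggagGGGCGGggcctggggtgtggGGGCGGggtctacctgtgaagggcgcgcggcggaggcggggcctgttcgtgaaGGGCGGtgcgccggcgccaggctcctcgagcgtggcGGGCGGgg
Rexo4, chr2:26964387-26964636: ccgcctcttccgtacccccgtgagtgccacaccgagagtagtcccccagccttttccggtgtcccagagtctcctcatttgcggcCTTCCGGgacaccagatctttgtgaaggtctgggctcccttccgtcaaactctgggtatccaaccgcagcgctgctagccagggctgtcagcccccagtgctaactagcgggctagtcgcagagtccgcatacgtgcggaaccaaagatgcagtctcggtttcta
Surf6, chr2:26902888-26903137: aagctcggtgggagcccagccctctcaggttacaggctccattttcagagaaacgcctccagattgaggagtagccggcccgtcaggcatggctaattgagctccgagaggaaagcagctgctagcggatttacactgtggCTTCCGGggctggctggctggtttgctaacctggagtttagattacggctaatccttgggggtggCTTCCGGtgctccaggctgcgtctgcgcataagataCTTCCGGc
The Surf4 window held GGGCGG 6 times and was 72.4% G and C, against a median of 52.4% over 32851 mouse promoter windows of the same length, of which 32.7% held GGGCGG or its reverse complement CCGCCC. The Rexo4 window held no GGGCGG and 1 CTTCCGG, and the Surf6 window (57.6% G and C) held 3, while 6.91% of all windows held CCGGAAG or CTTCCGG. Both strands were also searched for the NRF1 core GCATGCGC (2.26% of all windows), the YY1 core AAGATGG (4.49%) and CCAAT (33.8%), and none was in the 3 windows shown. All 7 genes had a window, and no match of 1 motif overlapped that of another in them. Of the windows not shown, that of Surf2 held CCGGAAG or its complement 2 times. GGGCGG or its complement was 2 times in the Med22 window and 1 time in the Surf1 window. The Med22 and Surf2 windows each held AAGATGG or its complement 1 time. Surf4 and Rexo4 thus shared none of the searched motifs in this window. A match is a description of the letters only.

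By all 5 of its probe sets, and both before and after immunization, Surf4 was higher in the BALB/cByJ colony than in the BALB/cJ colony. Averaged over its probe sets, it was at 0.29 ± 0.017 in immunized BALB/cByJ, -0.20 ± 0.12 in immunized BALB/cJ, 0.18 ± 0.091 in naïve BALB/cByJ and -0.26 ± 0.097 in naïve BALB/cJ mice (SD, n = 3 each). The differences between colonies were 0.27 to 0.63 in immunized and 0.37 to 0.53 in naïve mice over the 5 probe sets, which is 1.2- to 1.55-fold and 1.29- to 1.45-fold.

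The probe set 1448255_a_at, designed to the transcripts of 1 gene, was at 0.40, 0.34 and 0.38 in immunized BALB/cByJ, -0.21, -0.30 and -0.26 in immunized BALB/cJ, 0.16, 0.16 and 0.22 in naïve BALB/cByJ and -0.16, -0.25 and -0.16 in naïve BALB/cJ mice. The 4 groups did not overlap except in BALB/cJ mice, where the lowest naïve array lay among the immunized ones. The probe set 1436797_a_at, of the same kind, was at 0.34, 0.33 and 0.41 in immunized BALB/cByJ, -0.23, -0.34 and -0.17 in immunized BALB/cJ, 0.17, 0.17 and 0.24 in naïve BALB/cByJ and -0.26, -0.32 and -0.34 in naïve BALB/cJ mice. Its immunized BALB/cByJ arrays were again the highest 3 and its naïve BALB/cByJ arrays the next 3.

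The other 3 Surf4 probe sets carry the suffix _x_at, which Affymetrix gives to sets with probes that may match other transcripts, and 2 of the 3 varied more. The set 1416213_x_at was like the first pair, at 0.47, 0.35 and 0.46 in immunized BALB/cByJ, -0.14, -0.29 and -0.16 in immunized BALB/cJ, 0.14, 0.16 and 0.24 in naïve BALB/cByJ and -0.26, -0.18 and -0.36 in naïve BALB/cJ mice. By 1434589_x_at the values were 0.19, 0.24 and 0.21 in immunized BALB/cByJ, -0.015, -0.30 and 0.015 in immunized BALB/cJ, 0.46, 0.092 and -0.026 in naïve BALB/cByJ and -0.055, -0.20 and -0.33 in naïve BALB/cJ mice. It was the 1 Surf4 set in which the 6 BALB/cByJ arrays did not all lie above the 6 BALB/cJ arrays.

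By 1455822_x_at the values were 0.092, 0.12 and 0.066 in immunized BALB/cByJ, -0.11, -0.42 and 0.0 in immunized BALB/cJ, 0.51, 0.051 and 0.0 in naïve BALB/cByJ and -0.039, -0.46 and -0.55 in naïve BALB/cJ mice, and the nearest arrays of the colonies differed only past the third decimal. Both of these sets were highest by far in naïve BALB/cByJ replicate 1, the array with high pancreas genes, and the part of that tissue in these values was not tested. Without this array the naïve difference was 0.23 by 1434589_x_at, against 0.37 with it, 0.37 by 1455822_x_at, against 0.53 with it, and 0.38 to 0.51 by the other 3. Without immunized BALB/cJ replicate 2 the immunized difference by 1455822_x_at was 0.15, against 0.27 with it.

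Rexo4 differed between the colonies by more than Surf4. Averaged over its 2 probe sets, it was at 0.47 ± 0.061 in immunized BALB/cByJ, -0.33 ± 0.11 in immunized BALB/cJ, 0.31 ± 0.10 in naïve BALB/cByJ and -0.35 ± 0.053 in naïve BALB/cJ mice (SD, n = 3 each). Set 1434113_a_at was at 0.49, 0.33 and 0.42 in immunized BALB/cByJ, -0.47, -0.42 and -0.25 in immunized BALB/cJ, 0.48, 0.25 and 0.25 in naïve BALB/cByJ and -0.36, -0.39 and -0.51 in naïve BALB/cJ mice. Every BALB/cByJ array was above every BALB/cJ array, and within each colony the immunized and naïve arrays overlapped. Set 1434114_at was at 0.50, 0.48 and 0.62 in immunized BALB/cByJ, -0.35, -0.33 and -0.16 in immunized BALB/cJ, 0.33, 0.16 and 0.37 in naïve BALB/cByJ and -0.27, -0.24 and -0.30 in naïve BALB/cJ mice. By this set the immunized BALB/cByJ arrays were above the naïve ones, and the BALB/cJ arrays overlapped.

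The Rexo4 differences between colonies were 0.79 and 0.81 in immunized mice (1.73- and 1.75-fold) and 0.75 and 0.56 in naïve mice (1.68- and 1.47-fold), in the order of the sets above. Ranked by size among all 45037 probe sets, they stood at 107 and 95 in immunized mice and at 937 and 1672 in naïve mice. The 5 Surf4 sets ranked between 263 and 3634 in immunized and between 1817 and 3694 in naïve mice. Both Rexo4 sets thus ranked nearer the top in immunized mice, and no set of either gene reached a 2-fold difference, except that 1434113_a_at was at 1.04 in immunized mice when the values were quantile normalized again.

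**Figure D1:**
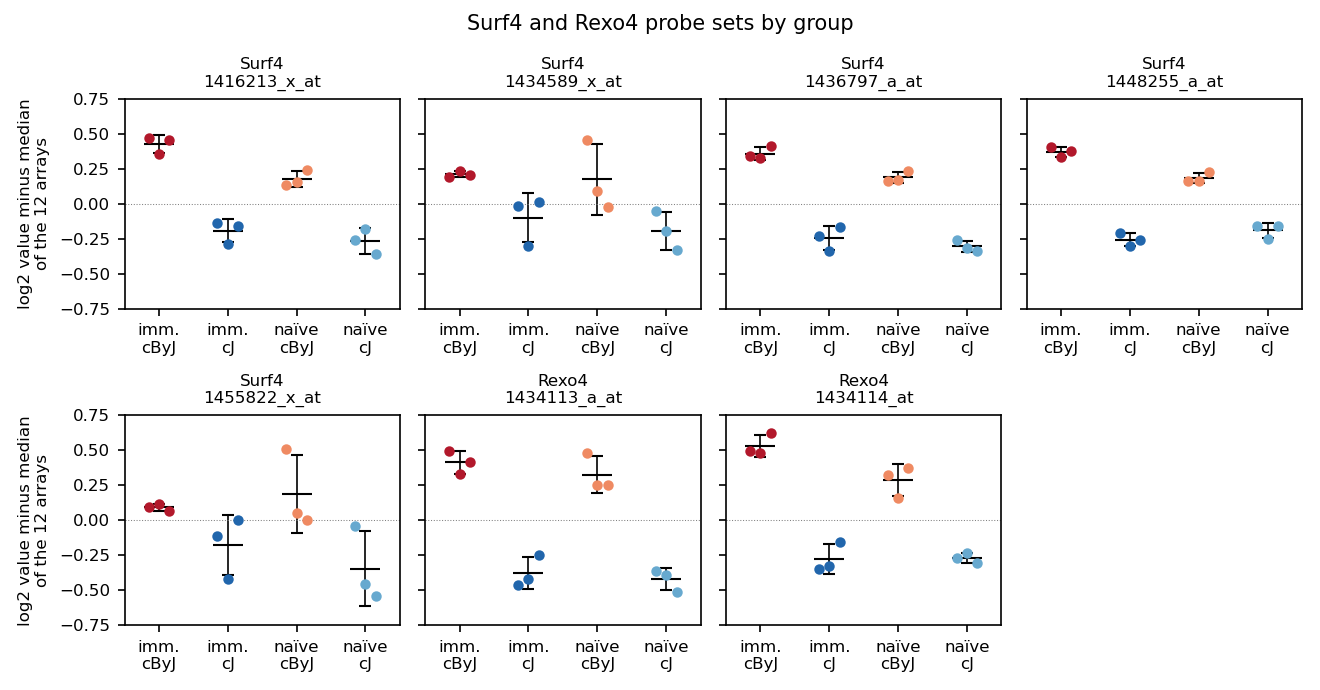
Values of the 5 Surf4 and 2 Rexo4 probe sets in each of the 12 arrays, in log2 units relative to the median array, by group (imm., immunized). Points are single mice, horizontal lines the mean and bars the SD of 3. BALB/cByJ arrays lie above BALB/cJ arrays within each state in every panel, and 2 of the _x_at sets have 1 high naïve BALB/cByJ array.

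Counted over sets, the 3 immunized BALB/cByJ arrays all lay above the 3 immunized BALB/cJ arrays in 5 of 5 Surf4 and 2 of 2 Rexo4 sets, which 8.14% of all probe sets also do. In naïve mice the counts were the same, and 9.76% of all probe sets do so. All 6 BALB/cByJ arrays lay above all 6 BALB/cJ arrays in 4 of 5 Surf4 and 2 of 2 Rexo4 sets, against 1.39% of all probe sets. As both genes were chosen from these arrays, these counts describe them and support nothing.

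Immunized and naïve mice of a colony differed by less than the colonies did. In BALB/cByJ mice the immunized minus naïve difference was between -0.097 and 0.25 over the Surf4 sets and 0.088 and 0.25 for the Rexo4 sets, and in BALB/cJ mice it was between -0.069 and 0.17 and at 0.044 and -0.007. The difference of these responses between the colonies ran from -0.27 to 0.26 for Surf4 and was 0.043 and 0.26 for Rexo4. The Surf4 sets thus did not share a sign, and both Rexo4 sets were positive. The 3 immunized BALB/cByJ arrays all lay above the 3 naïve ones in 3 of 5 Surf4 sets and 1 of 2 Rexo4 sets, as in 6.91% of all probe sets, and all below them in 0 of 7, as in 5.2%.

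The immunized arrays carry sample numbers from 2 runs, 29 to 33 and 48 to 50, which are not stated to be batches, and the naïve arrays carry 10 to 15, so that immunization and run cannot be told apart. Within the lower run, with 2 BALB/cByJ arrays and 1 BALB/cJ array, Rexo4 differed between the colonies by 0.84 to 0.88 and Surf4 by 0.22 to 0.58. Within the higher run, with 1 and 2 arrays, Rexo4 differed by 0.76 to 0.87 and Surf4 by 0.28 to 0.68. Both genes were higher in BALB/cByJ within each run.

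The lists of red cell, cell division and exocrine pancreas genes were lower in all naïve BALB/cJ than in all naïve BALB/cByJ arrays. The B cell and plasma cell lists were higher, and the pigment cell list was highest in some BALB/cJ arrays. The part of exocrine pancreas, cell division, B cell and plasma cell genes in the Surf4 and Rexo4 differences was not tested. With the mean of the red cell list as a covariate, the naïve differences were 0.34 to 0.95 over the Surf4 sets and 0.97 and 0.64 for Rexo4, and the immunized ones were 0.41 to 0.66, and 0.87 and 0.84. By 1434589_x_at and 1455822_x_at the naïve difference with the covariate was 0.68 and 0.95, more than 1.5 times that without it. Without the 4 arrays in which the pigment gene Dct was high, which leaves naïve BALB/cJ with 1 array, the naïve differences were 0.34 to 0.73 for Surf4 and 0.84 and 0.59 for Rexo4, and the immunized ones 0.29 to 0.69, and 0.79 and 0.80. In none of these settings did Surf4 or Rexo4 change direction. Both genes were chosen from these same arrays, so this is a description and supports nothing.

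Surf1, Surf2, Surf6 and Med22, which lie on the other side of Surf4 from Rexo4, did not pass the test. Of their 6 probe sets, limma called 0 in any of the 6 comparisons made (the colonies in immunized mice, in naïve mice and over both, the effect of immunization per colony, and the difference of responses). At an unadjusted p under 0.05 there were 0 between the immunized colonies, 2 between the naïve colonies and 1 over both states. There was 1 with immunization in BALB/cJ, 0 with immunization in BALB/cByJ and 1 for the difference of responses. How many of all probe sets reach an unadjusted p under 0.05 was not counted. Counts at that threshold, here and below, are therefore a description. The analysis of variance of the methods called 0 of the 6 sets in the 4 comparisons it gives. Over all 45037 probe sets limma called 0.12% between the immunized colonies (0.0755% higher and 0.0444% lower in BALB/cByJ), 4.39% between the naïve colonies (2.68% higher and 1.71% lower) and 4.62% over both states (3.04% higher and 1.58% lower). With immunization it called 0.0511% in BALB/cByJ (0.0488% higher and 0.00222% lower) and 0% in BALB/cJ, and for the difference of responses 0%. The colony differences of the 6 sets lay between -0.14 and 0.14 in immunized and between -0.21 and 0.15 in naïve mice, with 95% confidence intervals that reached from -0.31 to 0.40 and from -0.36 to 0.41. The widest of these intervals, that of Surf6 1459331_at, holds differences as large as the smaller ones of Surf4.

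Surf1 was at 0.074, -0.032 and 0.028 in immunized BALB/cByJ, -0.063, 0.01 and -0.013 in immunized BALB/cJ, -0.01, -0.086 and -0.17 in naïve BALB/cByJ and 0.18, 0.079 and 0.11 in naïve BALB/cJ mice. Naïve BALB/cByJ arrays were all below naïve BALB/cJ arrays, and the immunized groups overlapped. The difference was -0.21 in naïve mice (SE 0.071, 95% confidence interval -0.36 to -0.057, adjusted p = 0.121 from limma) and 0.045 in immunized mice (-0.11 to 0.20, adjusted p = 0.908). The difference of the responses was 0.26 (SE 0.10, adjusted p = 0.594).

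Surf2, the partner of Surf1 at the shared promoter region, had lower values in BALB/cByJ mice by 1433609_s_at and did not pass the test. This set, whose suffix marks probes shared by more than 1 transcript, was at -0.076, 0.011 and -0.009 in immunized BALB/cByJ, 0.057, 0.17 and 0.12 in immunized BALB/cJ, -0.16, -0.16 and -0.049 in naïve BALB/cByJ and 0.21, -0.026 and 0.009 in naïve BALB/cJ mice. The colonies did not overlap in either state, and the difference was -0.14 in immunized mice (SE 0.08, adjusted p = 0.696), -0.19 in naïve mice (SE 0.08, adjusted p = 0.22) and -0.16 over both (SE 0.056, adjusted p = 0.127, all from limma). By 1453117_at, the other Surf2 set, the difference was -0.076 in immunized mice (95% confidence interval -0.30 to 0.14) and 0.077 in naïve mice (-0.14 to 0.30), and the groups overlapped in both states.

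Surf6 and Med22, at the far end of the cluster from Rexo4, lay close to the median array in most samples. Surf6 was between -0.20 and 0.16 in all arrays by both sets, except 1459331_at in naïve BALB/cByJ replicate 1, at 0.46. Its differences by 1416864_at and 1459331_at were 0.039 and 0.14 in immunized and 0.021 and 0.15 in naïve mice (SE 0.083 and 0.118 in each state), and that of 1459331_at in naïve mice was 0.002 without the array with high pancreas genes. Med22 was at 0.045, 0.081 and -0.023 in immunized BALB/cByJ, 0.10, 0.057 and 0.081 in immunized BALB/cJ, -0.092, -0.20 and 0.023 in naïve BALB/cByJ and -0.032, -0.14 and -0.21 in naïve BALB/cJ mice. Its immunized BALB/cJ arrays were all above the naïve ones, and differed from them by 0.21 (SE 0.078, limma adjusted p = 0.464), and between the colonies it was at -0.045 in immunized and 0.037 in naïve mice.

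**Figure D2:**
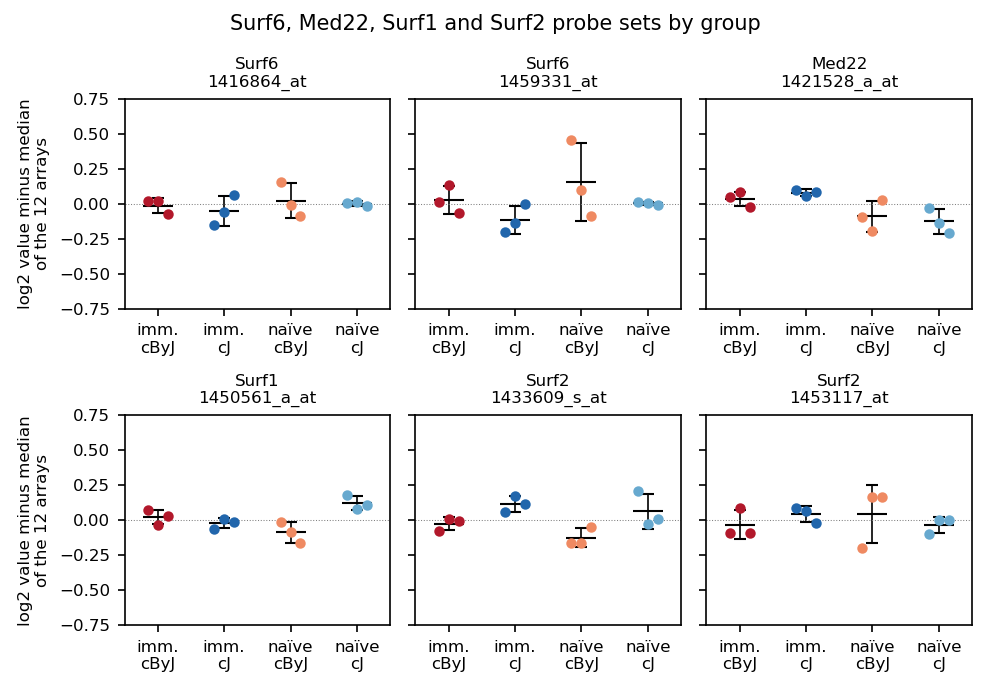
Values of the 6 probe sets of Surf6, Med22, Surf1 and Surf2 in each of the 12 arrays, in log2 units relative to the median array and on the same scale as for Surf4 and Rexo4, by group (imm., immunized). Points are single mice, horizontal lines the mean and bars the SD of 3. Most groups overlap, and the high naïve BALB/cByJ point of Surf6 1459331_at is replicate 1, at 0.46.

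Naïve BALB/cByJ arrays were all below naïve BALB/cJ arrays in 2 of the 6 sets of these 4 genes, against 11.9% of all probe sets, and all above them in 0, against 9.76%. In immunized mice 1 of 6 was all below, against 6.88% of all probe sets. With immunization in BALB/cJ mice 1 was all above (7.53% of all probe sets) and 1 all below (9.51%).

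The separation at Surf4 and Rexo4 was set beside 42 protein-coding genes around them, the 20 before the cluster, the 20 after Adamts13 and the 2 between members, of which 37 had a total of 72 probe sets. Limma called 0 of the 72 between the immunized colonies (5 at an unadjusted p under 0.05, and 0 by the analysis of variance of the methods). Between the naïve colonies it called 5, or 6.94% (against 4.39% of all probe sets), which were 4 sets of Egfl7 and 1 of Adamtsl2, all lower in BALB/cByJ. Over both states it called 2, or 2.78% (against 4.62%), both lower, and it called 0 for immunization in either colony and for the difference of responses. The median difference was 0.032 between the immunized and -0.10 between the naïve colonies, against -0.00673 and -0.00835 over all probe sets. In the direction of higher values in BALB/cByJ, 0 of the 72 sets reached the smallest naïve difference of a Surf4 or Rexo4 set (0.37), and the highest was Rxra at 0.33. In the opposite direction 5 were at least that large, down to -0.74 for Gpsm1. In immunized mice 2 sets reached the smallest difference (0.27), Tmem250-ps at 0.31 and the bromodomain gene Brd3 at 0.31, and 2 were as large in the opposite direction. Over both states 0 reached it and 1 was as large in the opposite direction. These comparisons with chosen genes carry no test.

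Among the neighbours, Egfl7, a factor secreted by endothelial cells, was lower in naïve BALB/cByJ mice by all 4 of its probe sets. Its set 1421335_a_at stood at -0.20, -0.31 and -0.23 in naïve BALB/cByJ and 0.35, 0.20 and 0.15 in naïve BALB/cJ mice, which is -0.48 apart (SE 0.08, limma adjusted p = 0.0101). In immunized mice the same set was at 0.15 (adjusted p = 0.668), and the difference of responses was 0.63 (SE 0.113, adjusted p = 0.356). Adamtsl2, a secreted protein of the extracellular matrix, was lower in naïve BALB/cByJ mice by -0.54 (SE 0.102, adjusted p = 0.0151) and Agpat2, an enzyme of phospholipid and triglyceride synthesis, over both states by -0.23 (SE 0.049, adjusted p = 0.0212). Gpsm1 had the lowest naïve difference of the neighbours, -0.74, and did not pass the test (adjusted p = 0.0732). The sets of neighbours that passed the test were all lower in BALB/cByJ. In naïve mice 0 of them were called with the red cell covariate, or without naïve BALB/cJ replicate 1 or 2. The share of all probe sets called in these fits was not counted.

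**Figure D3:**
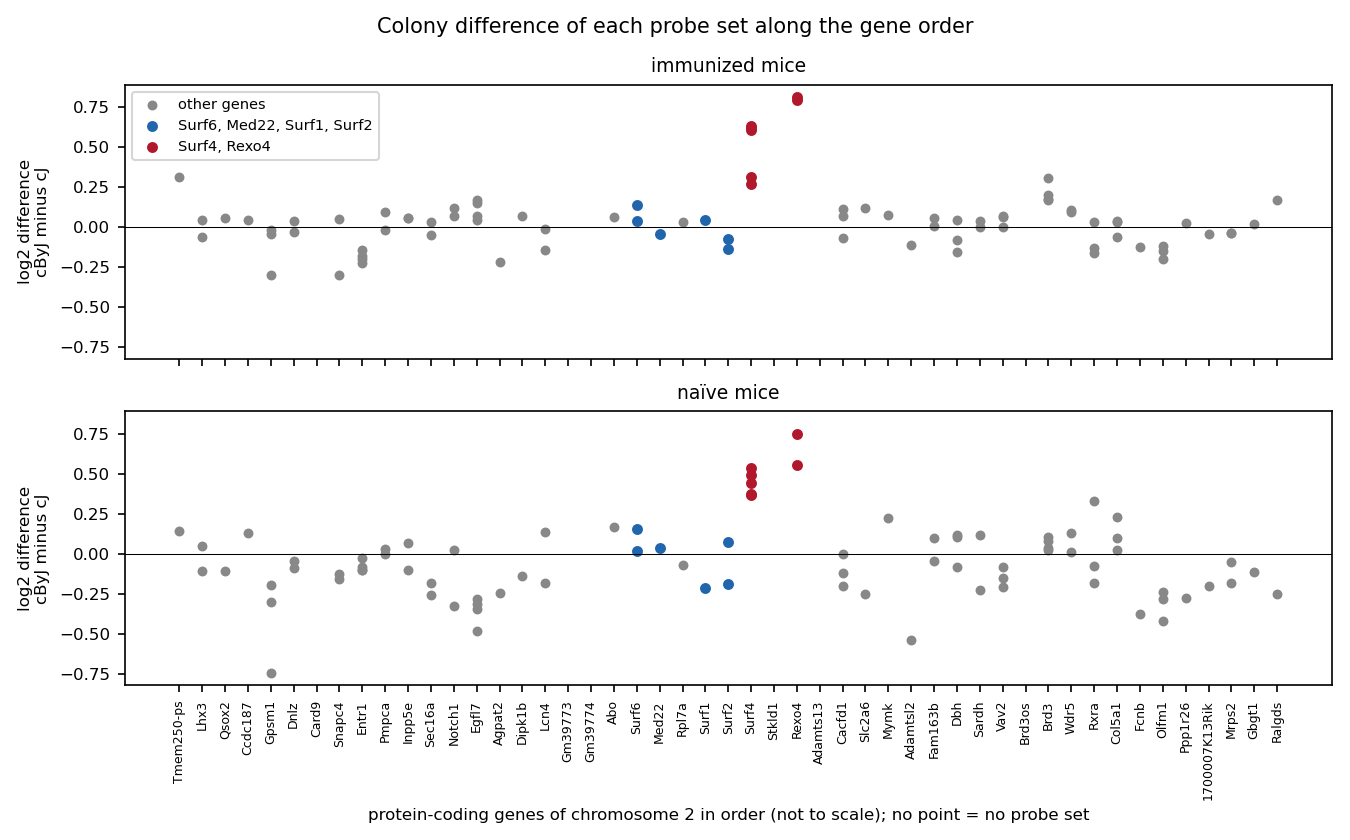
Log2 difference between the colonies (BALB/cByJ minus BALB/cJ) of each probe set, in immunized mice above and naïve mice below, for the protein-coding genes of the region in chromosomal order, evenly spaced. Each point is 1 probe set. Surf4 lies between 0.27 and 0.63 in immunized and 0.37 and 0.53 in naïve mice, Rexo4 between 0.56 and 0.81 over both panels, and the other genes mostly lie within 0.3 of 0 in immunized mice.

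Genes that act with the members were compared next. Surf4 belongs with the receptors and coat proteins that export cargo from the endoplasmic reticulum, of which 36 genes had 76 probe sets. None was called between the immunized colonies by limma (8 at an unadjusted p under 0.05, and 0 by the analysis of variance of the methods). Between the naïve colonies 1 was higher and 1 lower in BALB/cByJ (2.63% in all, against 4.39% of all probe sets), and over both states 1 was higher and 4 lower (6.58%, against 4.62%). The median difference was -0.043 in immunized and -0.095 in naïve mice.

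Lman1, a cargo receptor for clotting factors, was the set called higher, by 1 of its 5 probe sets, and as a gene that the study picked from these arrays it is not independent evidence. That set was at -0.027, 0.095 and 0.22 in immunized BALB/cByJ, -0.21, -0.26 and -0.29 in immunized BALB/cJ, 0.29, 0.44 and 0.39 in naïve BALB/cByJ and 0.014, -0.12 and -0.014 in naïve BALB/cJ mice. The colonies did not overlap in either state by this set, 1419951_at. The other 4 Lman1 sets were at -0.30, -0.19, -0.081 and 0.025 in naïve mice and did not pass the test. The COPII coat gene Sec31a was lower in naïve BALB/cByJ mice (-0.28, SE 0.068, adjusted p = 0.0403 from limma), and Tmed5, a cargo adaptor (-0.34, adjusted p = 0.027), Kdelr3, a retrieval receptor (-0.28, adjusted p = 0.0288), and Sec24d, a COPII coat gene (-0.40, adjusted p = 0.041), were lower over both states. Of the 31 sets of 14 genes of the COPI coat and retrieval, which return proteins to the endoplasmic reticulum, limma called 0 in any comparison (2 between the immunized and 5 between the naïve colonies at an unadjusted p under 0.05). Of all probe sets, 0.12% were called between the immunized colonies, 4.39% between the naïve colonies and 4.62% over both states. The retrieval receptors Kdelr1, Kdelr2 and Kdelr3 were counted in the export list and not in that of the COPI coat.

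For ribosome biogenesis, where Rexo4 and Surf6 belong, 44 genes had 86 probe sets, with medians of 0.035 in immunized and 0.038 in naïve mice. Limma called 0 of them between the immunized colonies (against 0.12% of all probe sets) and 0 between the naïve colonies (against 4.39%). At an unadjusted p under 0.05 there were 3 and 14. Over both states it called 1, or 1.16% (against 4.62%). This was Isg20, an interferon-induced exonuclease of the same enzyme family as Rexo4, higher in BALB/cByJ by 0.70 (SE 0.171, adjusted p = 0.0371). It was at -0.095, 0.23 and 0.37 in immunized BALB/cByJ, -0.22, 0.067 and -0.86 in immunized BALB/cJ, 0.13, 0.45 and 0.53 in naïve BALB/cByJ and -0.60, -0.92 and -0.067 in naïve BALB/cJ mice. Its lowest 3 arrays were the 3 with the lowest red cell medians. With the mean of the red cell list as a covariate Isg20 was not called over both states, and the cause was not tested.

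For the assembly of cytochrome c oxidase, where Surf1 belongs, 19 genes had 37 probe sets, of which limma called 0 between the immunized colonies (6 at an unadjusted p under 0.05), 3 higher and 0 lower in naïve BALB/cByJ (8.11%, against 4.39% of all probe sets), and 5 higher and 0 lower over both states (13.5%, against 4.62%). With the red cell list mean as a covariate 0 of them were called, and the share of all probe sets called in that fit was not counted. The median was 0.022 in immunized and 0.004 in naïve mice. The sets called were of Cmc2, a small mitochondrial assembly factor, Cox10, an enzyme of heme A synthesis, and Cox11, a copper chaperone. By 1427921_s_at, Cmc2 was at -0.004, 0.13 and 0.38 in immunized BALB/cByJ, -0.21, 0.004 and -0.27 in immunized BALB/cJ, 0.25, 0.10 and 0.50 in naïve BALB/cByJ and -0.37, -0.52 and -0.39 in naïve BALB/cJ mice, a naïve difference of 0.71 (SE 0.121, adjusted p = 0.0109). Surf1 itself lay in the opposite direction in naïve mice and did not pass the test.

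Mediator subunits, the group of Med22, had 71 probe sets of 32 genes, and limma called 0 in any comparison (5 between the immunized and 9 between the naïve colonies at an unadjusted p under 0.05). The shares of all probe sets called were 0.12% between the immunized colonies, 4.39% between the naïve colonies and 4.62% over both states. Of the proteases related to Adamts13 and the genes around von Willebrand factor, 21 genes had 36 probe sets, of which limma called 0 between the immunized colonies (3 at an unadjusted p under 0.05), and 0 higher and 3 lower in naïve BALB/cByJ and over both states (8.33% each, against 4.39% and 4.62% of all probe sets). These were the aggrecan-cleaving proteases Adamts1 and Adamts5 and the related Adamts20. Adamts20 was at -0.16, -0.29 and -0.44 in naïve BALB/cByJ and 0.30, 0.31 and 0.44 in naïve BALB/cJ mice, a difference of -0.65 (SE 0.097, adjusted p = 0.00732), and its immunized groups overlapped. Adamts5 and Adamts1 differed by -0.57 (adjusted p = 0.0409) and -0.58 (adjusted p = 0.033) in naïve mice. Immunization in either colony and the difference of responses gave 0 calls in all 6 lists. With the red cell list mean as a covariate, 0 of the neighbours and 0 of the members of these 6 lists were called. The share of all probe sets called in that fit was not counted, so this is not a result about these genes.

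**Figure D4:**
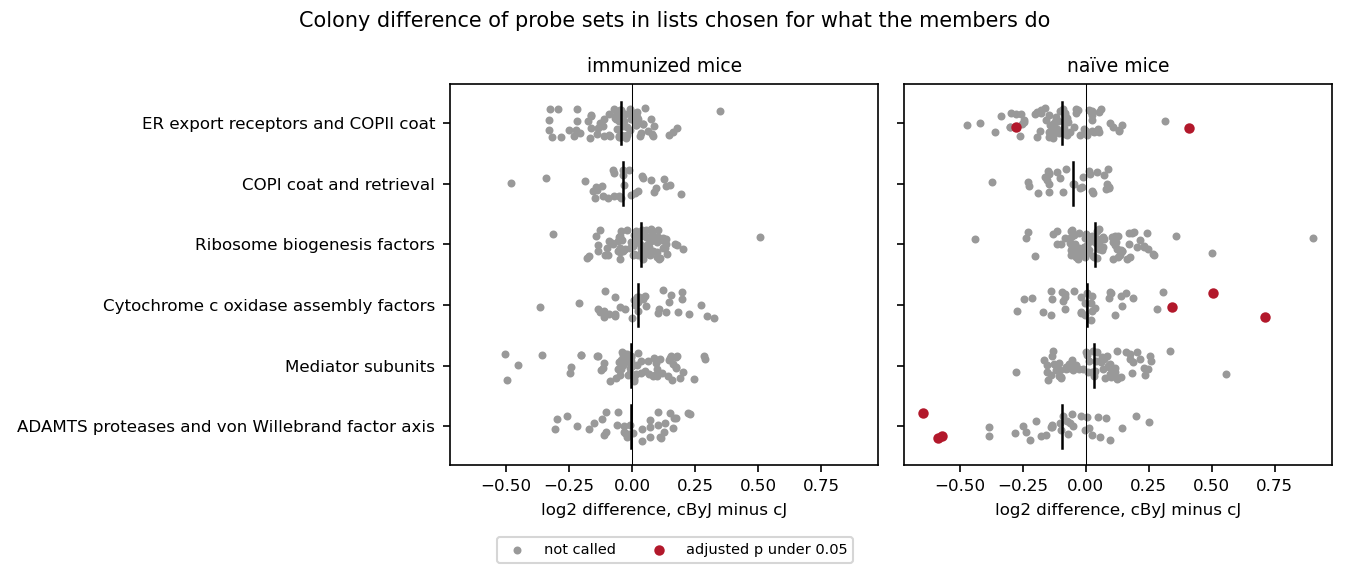
Log2 difference between the colonies (BALB/cByJ minus BALB/cJ) of the probe sets of 6 gene lists, in immunized mice at left and naïve mice at right. Each point is 1 probe set, its height within a row is random, the black bar is the median of the list, and red points have a limma adjusted p under 0.05. There are 0 red points in immunized mice and 8 in naïve mice.

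Over the 12 arrays, the genes whose values followed the mean of the 7 Surf4 and Rexo4 sets most closely by Pearson correlation were Ndufa3 (0.979), a subunit of respiratory complex I, Neto1 (0.964), Glo1 (0.957), the glyoxalase that detoxifies methylglyoxal, Zhx2 (0.944), a transcriptional repressor, and Gars (0.938), the glycyl-tRNA synthetase. Their differences between the colonies were between 0.20 and 2.04 in immunized and between 0.17 and 2.34 in naïve mice. Those that ran most opposite were Otud3 (-0.972), a deubiquitinase, Klhl25 (-0.97), an adaptor of a ubiquitin ligase, Arl2bp (-0.968), Acads (-0.952), an enzyme of short-chain fatty acid oxidation, and Rtf2 (-0.944). Their differences were between -3.78 and -0.80 in immunized and between -3.43 and -0.78 in naïve mice. As the Surf4 and Rexo4 values separate the colonies, these correlations describe a shared separation of the colonies in the same 12 arrays.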

How the data were processed

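Spleen RNA of 12 mice was measured on Affymetrix Mouse Genome 430 2.0 arrays. The authors made the deposited log2 values in GeneSpring GX 10.0 by robust multi-array averaging followed by centring of each probe set on its median (all medians within 5e-07 of 0). The sources used here do not give the averaging's version, and base 2 was read from the usual scale of the method. Without signal levels, no filter on dim probe sets could be applied. All 12 columns were used, and 0 belonged to other samples. No pair of arrays was identical (smallest SD of a difference 0.173).

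Of 45101 rows, 64 controls were left out. The annotation deposited with the arrays gave 34945 probe sets 1 gene, 932 several and 9160 none. The 4 group means were estimated by limma 3.58.1 (R 4.3.3, lmFit and eBayes) from all 12 arrays, and the threshold for a call was an adjusted p of 0.05 (Benjamini-Hochberg over all 45037). SE is the standard error of that fit. The methods' one-way analysis of variance, which called 74 probe sets over the 4 groups, was an alternative, beside other normalizations, weights, blocks, covariates and arrays left out. The fit was tested on simulated data. RefSeq's gene table of GRCm38.p6 gave gene order and promoters. Tables and figures used Python 3.11.15, pandas 2.3.3 and matplotlib 3.10.9.

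The members, the 6 function lists, the 11 marker lists and the named genes were chosen with earlier results of these data known. Named were all members, up to 4 called genes with the smallest p of the neighbours and of each list per comparison, and the 5 genes most and least like the mean of Surf4 and Rexo4. Brd3, Rxra, Gpsm1 and Tmem250-ps were named after their values were seen. The number of arrays limits the precision.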

Additional observations from a re-analysis of the deposited data

Results flagged for a closer look

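In 2 probe sets of the locus, every immunized BALB/cByJ array lay above the mean of the naïve BALB/cByJ arrays and every immunized BALB/cJ array lay below the mean of the naïve BALB/cJ arrays. For Surf1 1450561_a_at the immunization difference in BALB/cByJ minus that in BALB/cJ was 0.26, and limma gave it an adjusted p of 0.594. For Surf4 1448255_a_at it was also 0.26, and this difference was not tested because the gene was chosen from these arrays. Of the other 4 Surf4 sets none showed this pattern. The share of all probe sets with this pattern was not counted, so the 2 sets are a description only.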

How the results depend on the processing

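All Surf4 and Rexo4 differences between the colonies kept their sign under every alternative run (105 of 105 Surf4 values in each state and 100 of 100 over both, 42 of 42 and 40 of 40 for Rexo4). The alternatives refit the same arrays from which both genes were chosen, so these counts are a description and support nothing. The ranges below are of the same differences. With 1 array left out the colony differences ranged from 0.15 to 0.66 in immunized, 0.23 to 0.69 in naïve and 0.27 to 0.57 over both states for Surf4, and from 0.75 to 0.87, 0.51 to 0.79 and 0.66 to 0.80 for Rexo4. Over the other alternatives the ranges were, in the same order, 0.25 to 0.75, 0.30 to 0.95 and 0.31 to 0.68 for Surf4 and 0.77 to 1.04, 0.49 to 0.97 and 0.64 to 0.92 for Rexo4, where 1.04, past 2-fold, was 1434113_a_at with quantile normalization. The count of Surf1, Surf2, Surf6 and Med22 sets called stayed at 0 under all alternatives. Of the values of single members under the alternatives, 46 moved by more than the residual SD and 1566 did not. A sign other than in the main setting came up in 65 of 1612 values, all outside the Surf4 and Rexo4 colony differences (10 for the Surf6 and 5 for the Surf4 difference of responses, 9 for Rexo4 with immunization in BALB/cJ, 8 each for Med22 and Surf2 over both states, among others).

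Counts of neighbours and of list members called, 5 and 8 between the naïve colonies and 2 and 14 over both states, moved more. Between the naïve colonies they were 3 and 4 with quantile normalization, 18 and 27 with array weights, 2 and 3 with the compared arrays alone, and 0 and 0 with the analysis of variance of the methods. Over both states they were 4 and 27 with array weights, and 8 list genes were called at the level of genes. They were 0 with the red cell covariate in both comparisons. With 1 array left out, neighbours ranged from 0 to 10 (naïve) and 0 to 4 (both states), and list members from 1 to 9 and 3 to 17. The neighbour counts in naïve mice were 0 without naïve BALB/cJ replicate 1 or 2, 1 without naïve BALB/cByJ replicate 3 and 10 without naïve BALB/cByJ replicate 1. Except for the analysis of variance, which called 67 of 45037 between the naïve colonies, the share of all probe sets called was not counted. Whether calls over the whole array moved in the same way is therefore not known. The cause was not tested.

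The labels do not state that the replicate numbers pair the mice. Deviations of same-numbered arrays correlated between -0.289 and 0.368 over 18 pairs, and 9 were over 0.1. Arrays with different numbers were not compared in this way, so these values cannot decide whether the mice were paired. With the replicate number as a block the counts were 5 and 9 between the naïve colonies and 2 and 14 over both states, and 0 of the 4 tested genes was called. The filter on dim probe sets was not run, as levels are unknown. A fit on the compared groups alone does not exist for the mean over both states or the difference of responses, nor does the analysis of variance give them.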
